A study of Mus musculus with 6 samples.

Results

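The astrocyte genes described here are 31 genes used as markers of mouse forebrain astrocytes, listed by name and grouped by their known roles. The list was chosen with earlier results of these data known. These genes are 31 of the 55471 genes counted, and 30 of them were among the 17981 genes that passed the filter on low counts. RNA from whole hippocampus was sequenced in 6 libraries, 3 of each genotype (Control and CBP-ifKO), to ask how loss of CBP, a histone acetyltransferase and transcriptional coactivator encoded by Crebbp, from excitatory neurons alters gene expression. Total counts ran from 10199008 to 14950257 per library. The aligned reads that the study lists for these libraries do not follow the order of these totals, which was not resolved here. The astrocyte genes bear on a cell type that the genetic strategy did not aim at.

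CBP-ifKO mice carried floxed Crebbp alleles and the Camk2a-creERT2 transgene, a tamoxifen-inducible recombinase that the Camk2a promoter directs to forebrain excitatory neurons. Control mice are described in the treatment protocol and in the study's methods as littermates without the recombinase, while their description field reads Camk2a_creERT2. All mice of both groups were of the C57BL/6 strain (C57BL/6J in the study's methods), were 3 to 6 months old and received 5 intragastric doses of tamoxifen at 20 mg/ml. Per the study's methods each library was a pool of hippocampi from several female mice, so that replicates are pools and not single animals. Esr1, part of which is built into the recombinase, stood at 5.64 to 6.27 CPM (counts scaled by TMM to a common library size) in Control and at 63.4 to 69.2 CPM in the CBP-ifKO libraries. Crebbp lay between 155.9 and 207.9 CPM in the Control libraries against between 86.9 and 108.3 CPM in the CBP-ifKO libraries (log2 fold change -0.96 with an SE of 0.10, edgeR adjusted p 3.6e-05). Slc17a7, Prox1 and Neurod6, markers of hippocampal excitatory neurons, were present in all libraries. Whole-gene counts of bulk tissue do not separate cells: fewer astrocytes and less RNA per astrocyte cannot be told apart. Nor can RNA of these genes from astrocytes be told from that of other cells.

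Astrocytes clear glutamate and potassium from the synaptic cleft, exchange water and ions at the vessel wall, couple to each other through gap junctions and supply neurons with lipid and metabolic substrates. After injury or inflammation they enter a reactive state, in which intermediate filament genes such as Gfap and Vim and secreted proteins such as Serpina3n and Lcn2 are typically induced. They also secrete apolipoprotein E, the main lipid carrier of the brain.

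Of the 31 genes, 2 fell in CBP-ifKO and 0 rose. Serpina3n, a secreted serine protease inhibitor, fell to 49.9% of its Control level. Apoe fell to 79.0%. The other 28 genes tested, among them Gfap and the glutamate transporters, did not pass the test. These 2 calls are 6.67% of the 30 genes tested, against 6.39% of all genes (1149 of 17981). By direction, 4.99% of all genes were lower (897) and 1.40% higher (252). Scaled by library totals alone, these numbers were 667 and 514. The share of astrocyte genes called is thus near that of all genes. At an unadjusted edgeR p under 0.05 the counts were 6 lower and 0 higher among the astrocyte genes, against 21.2% of all genes. DESeq2 called 2 lower and 0 higher, against 6.17% of all genes.

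The upstream sequences of both genes that fell are shown to place them beside each other, as RefSeq gives them for GRCm38.p6, 250 bases ending just before the annotated start and written 5′ to 3′ on the strand of the gene, with CG dinucleotides in capitals. Serpina3n is taken from the plus strand at chr12:104406458-104406707 and Apoe from the minus strand at chr7:19699189-19699438, the most upstream of its 3 annotated starts.
Serpina3n: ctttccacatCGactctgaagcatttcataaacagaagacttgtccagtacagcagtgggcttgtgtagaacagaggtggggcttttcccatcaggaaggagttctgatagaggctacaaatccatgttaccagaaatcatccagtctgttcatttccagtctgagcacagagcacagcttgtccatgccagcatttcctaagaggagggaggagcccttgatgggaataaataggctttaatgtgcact
Apoe: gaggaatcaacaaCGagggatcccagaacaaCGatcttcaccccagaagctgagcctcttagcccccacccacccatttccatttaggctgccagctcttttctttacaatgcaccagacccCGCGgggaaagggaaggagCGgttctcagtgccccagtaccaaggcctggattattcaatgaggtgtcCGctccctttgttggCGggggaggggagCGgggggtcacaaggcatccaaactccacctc
The Serpina3n window held 1 CG dinucleotide and 46.4% GC, and the Apoe window 8 and 57.2%. Over 32841 mouse promoter windows the medians were 6 and 52.4%. Letters were searched on both strands. The Serpina3n window held AATAAATA, a TATA-like run chosen after the sequence was seen, beginning 24 bases before the start. Of all windows 2.39% held this run. The TATA box TATAAA, which 12.4% of all windows held, was in neither window shown. Among the astrocyte genes, Slc1a3, Vim and another annotated start of Apoe held it. Neither window held TGACGTCA, the full cyclic AMP response element, which 1.55% of all windows held, nor its shorter form TGACG (17.8%), nor the STAT motif TTCNNNGAA (7.02%). Among the 27 astrocyte genes with a window, 0 held the full element, 6 the shorter form (Slc1a3, Gja1, Htra1, Id3, Id4 and Mt1) and 4 the STAT motif (Slc1a3, Aldoc, Acsbg1 and Ntsr2). TGACG is contained in the full element, so these searches overlap. A match is a description of letters and not of a bound site.

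Among the genes of the cytoskeleton and reactive state, Serpina3n stood apart. Serpina3n (ENSMUSG00000021091, GRCm38 chromosome 12, 104406729 to 104414329, plus strand) had 26.3, 29.0 and 30.4 CPM in the Control libraries (replicates 1 to 3 in order, here and throughout) against 15.6, 14.0 and 13.3 CPM in the CBP-ifKO libraries. All CBP-ifKO libraries lay below all Control libraries, with a wide gap between the groups. The means were 28.6 ± 2.11 CPM and 14.3 ± 1.16 CPM (SD, n = 3), and the difference was a log2 fold change of -1.004 (SE 0.10, 95% interval -1.22 to -0.79, edgeR adjusted p 3.1e-05). The call held under all 14 alternatives, with log2 fold changes between -1.06 and -0.95. Counts behind these levels were 281 to 339 per Control library and 161 to 214 per CBP-ifKO library. Relative to Gfap in the same library, there were 13.6, 15.1 and 17.3 Serpina3n counts per 100 Gfap counts in Control and 8.72, 7.85 and 7.68 in CBP-ifKO. The groups were again fully separate on this scale, which does not depend on library size.

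Serpina3n lies at the end of a cluster of closely related genes on chromosome 12, looked at after its values were seen. Reads from near-identical copies can be split or lost in counting, so the neighbours were examined too. Reads dropped because they map to several copies appear at no gene, so the neighbours' counts cannot show such loss. Their highest level was 0.655 CPM, that of Serpina3g in Control replicate 1, and none of the neighbours passed the filter. Serpina3g had 7, 5 and 6 counts in Control and 2, 5 and 3 in CBP-ifKO. In CPM these were 0.655, 0.428 and 0.593 against 0.193, 0.328 and 0.246, all near the floor.

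Gfap, the intermediate filament that defines many astrocytes, did not pass the test. It had 193.6, 192.3 and 175.8 CPM in the Control libraries against 178.3, 178.7 and 173.1 CPM in the CBP-ifKO libraries. The groups overlapped at a single library, Control replicate 3 (log2 fold change -0.084, 95% interval -0.21 to 0.041, edgeR adjusted p 0.457). Vim, the other intermediate filament, had 23.6, 20.8 and 19.7 CPM in the Control libraries against 23.3, 16.3 and 20.2 CPM in the CBP-ifKO libraries, with overlap (log2 fold change -0.11, edgeR adjusted p 0.662). S100b, a calcium-binding protein, stood at 83.8 ± 6.24 CPM in the Control libraries against 76.9 ± 4.69 CPM in the CBP-ifKO libraries (log2 fold change -0.12, edgeR adjusted p 0.363). Lcn2, the iron-binding lipocalin that rises sharply in reactive astrocytes, was at the floor. Its counts summed to 5 over the Control libraries and 11 over the CBP-ifKO libraries, with 0.0936, 0.171 and 0.198 CPM in the Control libraries against 0.676, 0 and 0.328 CPM in the CBP-ifKO libraries. It did not pass the filter on low counts. With no filter edgeR gave a log2 fold change of 0.92 (adjusted p 0.723), so that a difference was not detectable at this depth.

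**Figure D1:**
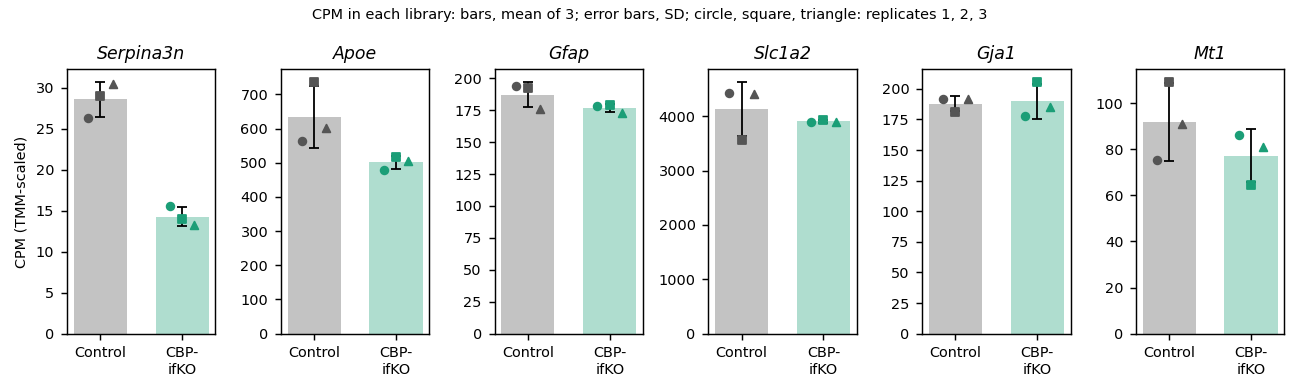
CPM (TMM-scaled) of 6 astrocyte genes in each library, with separate vertical axes that start at 0. Bars give the mean of 3 libraries, error bars the SD, and circles, squares and triangles replicates 1, 2 and 3. The Serpina3n libraries of CBP-ifKO, at 13.3 to 15.6 CPM, all lie below those of Control, at 26.3 to 30.4 CPM, while Gfap, Slc1a2, Gja1 and Mt1 overlap between groups.

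The secreted and membrane-bound proteins include Apoe, the second gene that fell. Apoe (ENSMUSG00000002985, GRCm38 chromosome 7, 19696109 to 19699188, minus strand) had 564.8, 736.4 and 600.2 CPM in the Control libraries against 478.8, 517.6 and 505.9 CPM in the CBP-ifKO libraries. All CBP-ifKO libraries lay below all Control libraries, and Control replicate 2 was far above the other Control libraries. The means were 633.8 ± 90.6 CPM and 500.8 ± 19.9 CPM (SD, n = 3), and the difference was a log2 fold change of -0.34 (SE 0.079, 95% interval -0.51 to -0.17, edgeR adjusted p 0.0158). The call was lost when trends of counts with GC content and gene length were removed (log2 fold change -0.17, edgeR adjusted p 0.106), and without CBP-ifKO replicate 1, 2 or 3 (adjusted p 0.0689, 0.0527 and 0.079). Without Control replicate 2 the log2 fold change of Apoe was -0.21 and still passed (edgeR adjusted p 0.0224). Apoe has a GC content of 59.5%, second among the astrocyte genes only to Mt3 at 62.3%. Per 100 Slc1a3 counts in the same library, there were 89.9, 120.7 and 94.3 Apoe counts in Control and 85.5, 87.0 and 91.4 in CBP-ifKO. Here the groups overlapped, but Slc1a3 was itself lower in CBP-ifKO, without overlap. Per 100 Gja1 counts there were 295.2, 407.2 and 313.3 Apoe counts in Control and 268.6, 251.6 and 272.6 in CBP-ifKO, without overlap.

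Clu, a secreted chaperone and lipoprotein component, and Cst3, the protease inhibitor cystatin C, did not pass the test. Clu had 464.6, 560.7 and 502.5 CPM in the Control libraries against 492.1, 469.5 and 460.9 CPM in the CBP-ifKO libraries (log2 fold change -0.10, edgeR adjusted p 0.403). Cst3 had 326.0, 493.2 and 393.2 CPM in the Control libraries against 340.1, 408.8 and 362.1 CPM in the CBP-ifKO libraries (log2 fold change -0.13, edgeR adjusted p 0.554). In both genes Control replicate 2 was again the highest library. Htra1, a secreted protease, differed by -0.037 on the log2 scale (edgeR adjusted p 0.849). F3, the membrane-bound tissue factor, had 32.3, 31.8 and 32.6 CPM in the Control libraries against 34.9, 36.7 and 33.5 CPM in the CBP-ifKO libraries. Every CBP-ifKO library of F3 lay above every Control library, as in 2 of the 30 genes tested and in 11.8% of all genes. Its log2 fold change of 0.12 did not pass the test (SE 0.079, edgeR adjusted p 0.414).

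Of the 5 genes of glutamate and amino acid handling, 0 passed the edgeR test, 1 lay at an unadjusted p under 0.05 (Slc1a3) and DESeq2 called 0. Over all genes these shares were 6.39%, 21.2% and 6.17%. Slc1a2, the glutamate transporter GLT-1 and the astrocyte gene with the most counts, had 4422, 3557 and 4415 CPM in the Control libraries against 3893, 3934 and 3887 CPM in the CBP-ifKO libraries. The CBP-ifKO libraries lay close together while Control replicate 2 stood well below its group (log2 fold change -0.081, edgeR adjusted p 0.563). Without Control replicate 2 the log2 fold change of Slc1a2 was -0.17 and passed the test (edgeR adjusted p 0.0202), while without Control replicate 1 or 3 it was -0.030 and -0.028 (edgeR adjusted p 0.875 and 0.909). Slc1a3, the second glutamate transporter, GLAST, had 628.6, 610.0 and 636.7 CPM in the Control libraries against 560.3, 594.6 and 553.6 CPM in the CBP-ifKO libraries. Its groups did not overlap, and the log2 fold change of -0.13 did not pass the test (SE 0.054, 95% interval -0.25 to -0.019, edgeR adjusted p 0.162). It passed with the replicate number as a block and trends with GC content and length removed (-0.16, edgeR adjusted p 0.0164).

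Glul, the glutamine synthetase that converts the cleared glutamate, had 1044, 1085 and 1018 CPM in the Control libraries against 1025, 1015 and 975.6 CPM in the CBP-ifKO libraries, with overlap (log2 fold change -0.061, 95% interval -0.17 to 0.051). Atp1b2, a sodium pump subunit, had 69.0, 49.7 and 76.2 CPM in the Control libraries against 63.8, 52.1 and 59.0 CPM in the CBP-ifKO libraries. Control replicate 2 was the lowest of the 6 libraries here, and without it the log2 fold change moved from -0.16 (edgeR adjusted p 0.490) to -0.31 (edgeR adjusted p 0.0254). Without Control replicate 3 Atp1b2 was at -0.024 and without CBP-ifKO replicate 2 at -0.071 (edgeR adjusted p 0.953 and 0.844). Slc7a10, a small neutral amino acid transporter, stood at 11.5 ± 0.416 CPM in the Control libraries against 11.7 ± 0.379 CPM in the CBP-ifKO libraries (log2 fold change 0.014, 95% interval -0.23 to 0.26). It shares 17.9% of its exon bases with Lrp3 on the other strand.

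Of the 5 genes of gap junctions, water and ion transport, 0 passed the edgeR test, 0 lay at an unadjusted p under 0.05 and DESeq2 called 0. The shares over all genes were 6.39%, 21.2% and 6.17%. Gja1, connexin 43, had 191.4, 180.9 and 191.6 CPM in the Control libraries against 178.2, 205.7 and 185.6 CPM in the CBP-ifKO libraries (log2 fold change 0.016, 95% interval -0.12 to 0.15). The CBP-ifKO libraries lay on both sides of the Control libraries. Gjb6, connexin 30, stood at 37.6 ± 0.698 CPM and 36.6 ± 1.47 CPM (log2 fold change -0.045, 95% interval -0.21 to 0.12). Aqp4, the water channel of the vessel-facing end-feet, had 191.5, 157.5 and 170.9 CPM in the Control libraries against 151.3, 192.2 and 161.8 CPM in the CBP-ifKO libraries (log2 fold change -0.038, 95% interval -0.22 to 0.14). Its spread within each group was larger than the difference between them. Gjb6 and Aqp4 turned to the other side of 0 when libraries were scaled by their totals alone. Mlc1, a membrane protein of the end-feet, differed by -0.14 (edgeR adjusted p 0.403). Slc4a4, the sodium bicarbonate cotransporter, had 316.2, 280.4 and 307.0 CPM in the Control libraries against 319.3, 327.1 and 338.5 CPM in the CBP-ifKO libraries. Its groups did not overlap, with CBP-ifKO above Control, and the log2 fold change of 0.12 did not pass the test (SE 0.060, 95% interval -0.0013 to 0.25, edgeR adjusted p 0.241).

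Of the 3 metabolic enzymes, 0 passed the edgeR test, 1 lay at an unadjusted p under 0.05 (Acsbg1) and DESeq2 called 0. For all genes the shares were 6.39%, 21.2% and 6.17%. Acsbg1, an acyl-CoA synthetase of fatty acid metabolism, had 99.8, 112.7 and 103.9 CPM in the Control libraries against 85.6, 96.4 and 91.4 CPM in the CBP-ifKO libraries. Its groups did not overlap, and it came closest to the threshold among the genes not called (log2 fold change -0.21 with an SE of 0.069, edgeR adjusted p 0.0834). Aldh1l1, the folate enzyme used as a pan-astrocyte marker, had 38.1, 46.8 and 38.8 CPM in the Control libraries against 41.0, 37.0 and 39.1 CPM in the CBP-ifKO libraries (log2 fold change -0.085, edgeR adjusted p 0.645). Without Control replicate 2, its highest library, it was at 0.028. Aldoc, the brain aldolase of glycolysis, stood at 519.3 ± 49.0 CPM and 487.6 ± 40.7 CPM (log2 fold change -0.092, edgeR adjusted p 0.515). Aldh1l1 shares 11.1% of its exon bases with Gm15756 on the other strand.

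Of the 5 receptors and transcription regulators, 0 passed the edgeR test, 1 lay at an unadjusted p under 0.05 (Id4) and DESeq2 called 0. Over all genes these shares were 6.39%, 21.2% and 6.17%. Id4, an inhibitor of basic helix-loop-helix factors, had 71.1, 62.2 and 66.5 CPM in the Control libraries against 56.0, 61.1 and 61.4 CPM in the CBP-ifKO libraries, without overlap. The log2 difference of -0.16 had an SE of 0.072 (edgeR adjusted p 0.212) and became -0.23 with trends on GC content and length removed, where it passed the test (edgeR adjusted p 0.0408). Sox9, the transcription factor that specifies astrocytes, had 19.5, 14.9 and 15.4 CPM in the Control libraries against 17.97, 13.7 and 13.5 CPM in the CBP-ifKO libraries (log2 fold change -0.15, 95% interval -0.44 to 0.14). Replicate 1 was the highest library in both groups. Fgfr3, a fibroblast growth factor receptor, stood at 89.7 ± 5.50 CPM and 85.7 ± 4.42 CPM, and Ntsr2, a neurotensin receptor, at 65.3 ± 6.06 CPM and 59.9 ± 4.78 CPM (log2 fold changes -0.067 and -0.12). Id3, of the same family as Id4, was the lowest of the genes tested at 7.22 ± 1.01 CPM in the Control libraries against 7.05 ± 0.306 CPM in the CBP-ifKO libraries. Fgfr3 shares 13.9% of its exon bases with G630022F23Rik on the other strand.

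The 3 metallothioneins, small proteins that bind zinc and copper, lie side by side on chromosome 8 (Mt3 from 94152607, Mt2 from 94172664 and Mt1 from 94179082, all on the plus strand). None passed the edgeR test, 1 lay at an unadjusted p under 0.05 (Mt1) and DESeq2 called 0. The shares over all genes were 6.39%, 21.2% and 6.17%. Mt1 had 75.5, 109.2 and 91.2 CPM in the Control libraries against 86.3, 64.5 and 81.0 CPM in the CBP-ifKO libraries (log2 fold change -0.26 with an SE of 0.12, edgeR adjusted p 0.205). Mt2 had 15.2, 24.8 and 20.9 CPM in the Control libraries against 20.7, 13.6 and 16.2 CPM in the CBP-ifKO libraries (log2 fold change -0.29 with an SE of 0.16, edgeR adjusted p 0.333). Mt1 and Mt2 had the same order of libraries within each group, highest in Control replicate 2 and lowest in CBP-ifKO replicate 2. Mt1 passed the test without Control replicate 1 (log2 fold change -0.38, edgeR adjusted p 0.0438) and with no filter on low counts (-0.25, edgeR adjusted p 0.0222). Without Control replicate 2 Mt1 was at -0.11 and without CBP-ifKO replicate 2 at -0.13 (edgeR adjusted p 0.584 and 0.621). Mt3, the brain form, had 85.4, 129.9 and 107.3 CPM in the Control libraries against 100.6, 103.3 and 94.2 CPM in the CBP-ifKO libraries (log2 fold change -0.12), and turned to 0.13 with trends on GC content and length removed. Mt2 shares 73.5% of its exon bases with Gm45774 on the other strand, and whether counting used strand is not given in the sources used here, so Mt2 is uncertain.

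**Figure D2:**
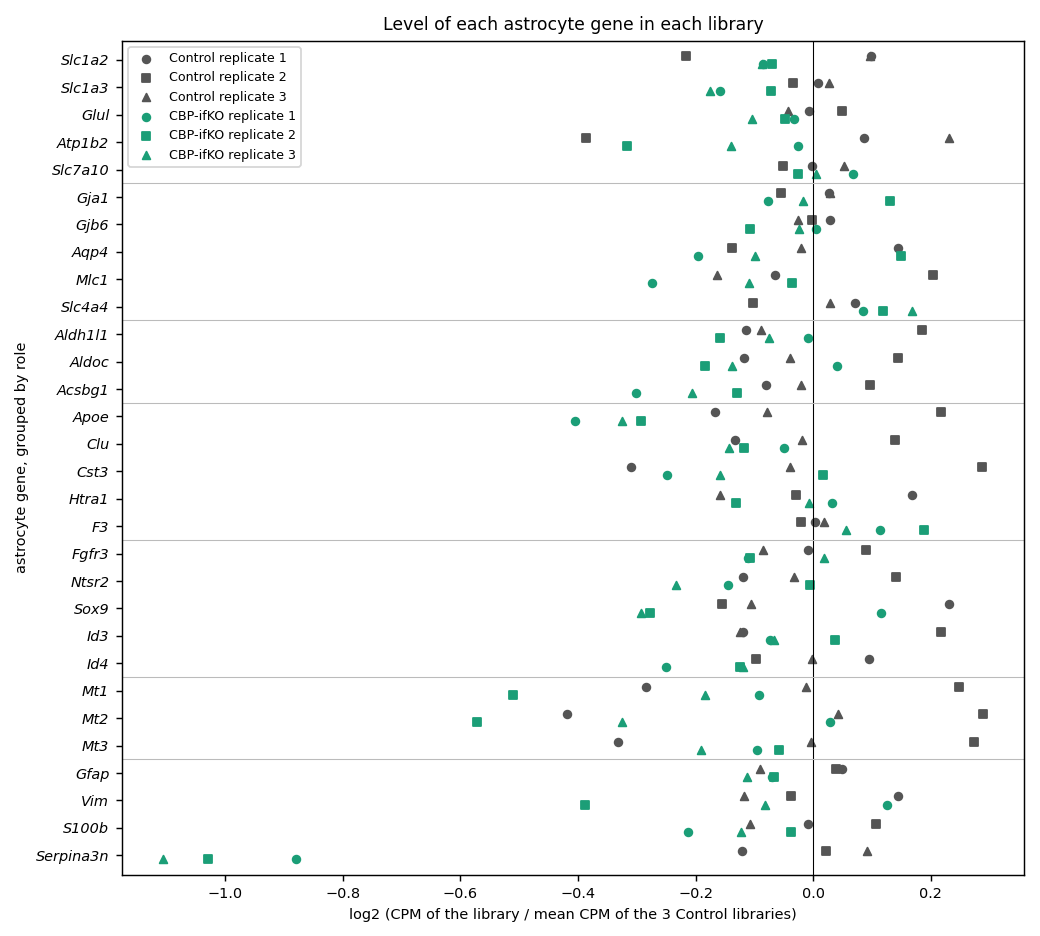
Level of each of the 30 tested astrocyte genes in each library, as the log2 ratio to the mean CPM of the 3 Control libraries, with the genes grouped by role between the grey lines. Grey symbols are Control and green symbols CBP-ifKO, with a shape for each replicate. Serpina3n alone lies near -1 in all CBP-ifKO libraries. The grey squares of Control replicate 2 are the highest of the Control libraries in 15 genes and the lowest in 10. With so few libraries each lies at an edge in many genes, so these counts alone do not set that library apart.

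The levels of different genes were compared per length, as CPM per kilobase of exon. In Control the order was led by Cst3 at 319.2 ± 66.5, Slc1a2 at 314.6 ± 37.9, Apoe at 296.5 ± 42.4 and Glul at 277.4 ± 8.83 CPM per kilobase (SD, n = 3). The libraries of these neighbours overlapped, so their order is not resolved. Glul stood above the next gene, Aldoc, at 159.2 ± 15.02, without overlap. Gfap was in place 11 at 44.4 ± 2.36 CPM per kilobase, and the lowest were Vim, Id3 and Sox9 at 4.50, 4.03 and 4.01. Of the 29 neighbouring pairs in this order, 20 overlapped in their Control libraries and 9 did not. Serpina3n moved from place 23 at 13.8 ± 1.02 CPM per kilobase in Control to place 26 at 6.92 ± 0.560 in CBP-ifKO.

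Most of the 30 genes tested had a small negative log2 fold change. The value was below 0 in 26 of 30, with a median of -0.11, against 50.7% of all genes and a median of -0.0033. Scaled by library totals alone, 22 of 30 were below 0 with a median of -0.063, and all genes then had a median of 0.043. The median of the 30 genes in each library, relative to the Control mean, was -0.0061, 0.045 and -0.019 in Control and -0.072, -0.089 and -0.11 in CBP-ifKO. The CBP-ifKO libraries lay below the Control libraries, and the median moved to -0.041 without Control replicate 2 and to -0.072 without CBP-ifKO replicate 3. Groups did not overlap in 5 genes that were lower in CBP-ifKO (Slc1a3, Acsbg1, Apoe, Id4 and Serpina3n), against 13.9% of all genes, and in 2 that were higher (Slc4a4 and F3), against 11.8% of all genes. For 26 of the 30 genes the 95% interval of the log2 fold change lay inside -0.5 to 0.5, the exceptions being Serpina3n, Apoe, Mt1 and Mt2. Summed over the 31 genes, the level was 9588 to 9980 CPM in the Control libraries against 9070 to 9282 CPM in the CBP-ifKO libraries, of which Slc1a2 made up the greatest share.

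**Figure D3:**
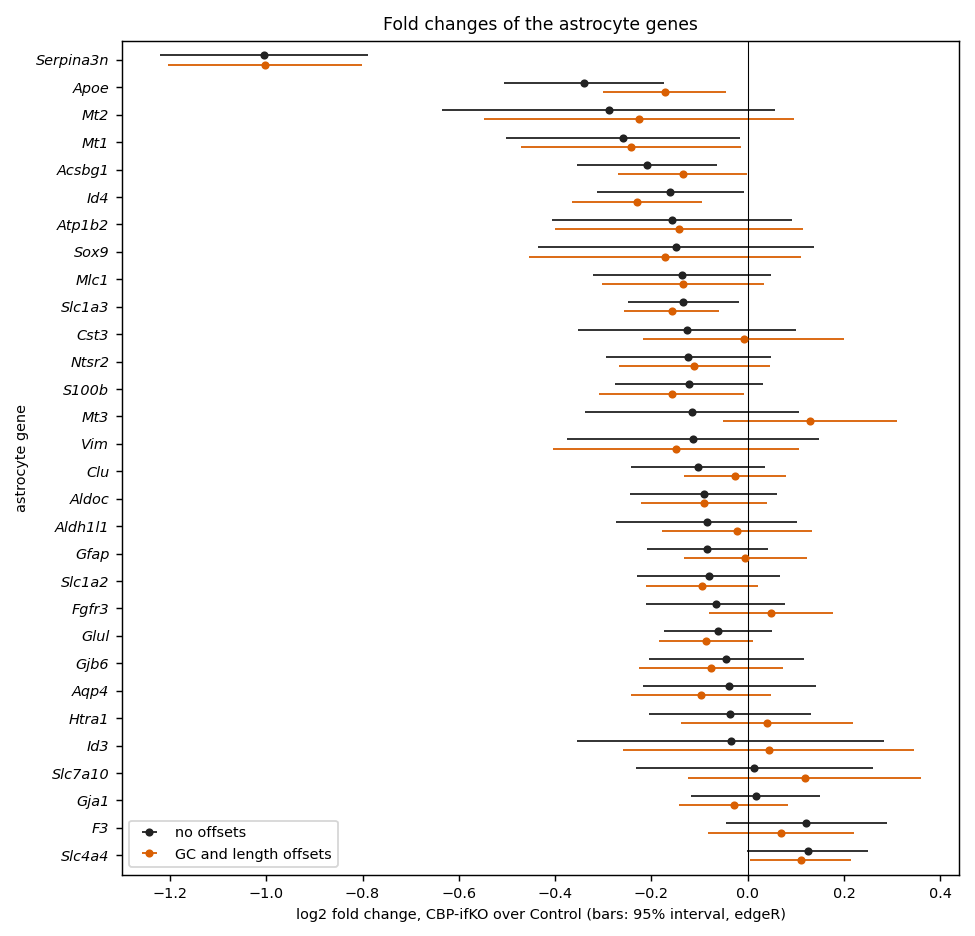
Log2 fold change of CBP-ifKO over Control for the 30 tested astrocyte genes with 95% intervals from edgeR, without (black) and with (orange) offsets that remove each library's trends with GC and length. Serpina3n is at -1.004 and -1.003, Apoe moves from -0.34 to -0.17 and Mt3 from -0.12 to 0.13.

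Control replicate 2 stood apart from the other Control libraries in a way that followed both base composition and exon length. Across the 30 genes its deviation from the other Control libraries had a Spearman correlation of 0.648 with GC content and -0.70 with exon length, a description over genes of the same libraries. The corresponding values for Control replicate 1, whose comparison includes replicate 2, were -0.596 and 0.666. Control replicate 2 was the highest of the Control libraries in 15 genes, the lowest in 10 and between the others in 5. Any of so few libraries lies at an edge in many genes, so these counts alone do not set that library apart. The log2 fold change of the 30 genes had a Spearman correlation of -0.20 with GC content, against -0.285 over all genes. Over the 30 genes this correlation was 0.20 without Control replicate 2 and 0.298 with GC and length trends removed. It was not computed with any other library left out, so whether its sign rested on that library was not tested. Serpina3n, with 51.9% GC, was at -0.98 without Control replicate 2. The coefficient of variation of the 30 genes had a median of 9.43% in Control and 5.50% in CBP-ifKO, and was larger in Control in 22. The part of base composition and exon length in the small negative values was not tested beyond the fit with GC and length trends removed. In that fit 23 of 30 genes lay below 0 with a median of -0.093 and 2 were called, against 6.27% of all genes. GC and length trends were removed only together, so their parts cannot be told apart.

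**Figure D4:**
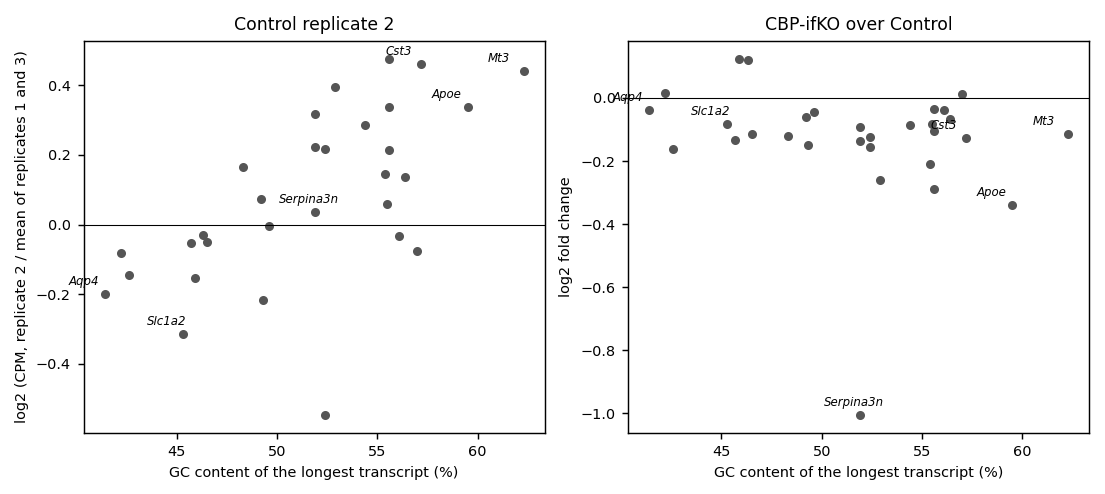
GC content of the longest transcript (percent) of the 30 tested astrocyte genes against the log2 ratio of Control replicate 2 to the mean of Control replicates 1 and 3 (left) and the log2 fold change of CBP-ifKO over Control (right). Cst3, Apoe and Mt3, which lie high in Control replicate 2, have high GC content and short exon length (1266, 2138 and 1066 bases). Slc7a10, at 57.0% GC, was lower in Control replicate 2 than in replicates 1 and 3. The Spearman correlation with GC content is 0.648 on the left and -0.20 on the right, the latter 0.20 without Control replicate 2. With exon length, not drawn, the correlation on the left is -0.70.

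A further list of 40 astrocyte genes, was fully within the genes tested. In this list 4 genes fell and 1 rose (12.5% called, against 6.39% of all genes), and the median log2 fold change was -0.12. Bcan, brevican of the perineuronal matrix, had 116.7, 124.0 and 110.5 CPM in the Control libraries against 92.1, 88.3 and 92.8 CPM in the CBP-ifKO libraries, without overlap (log2 fold change -0.36 with an SE of 0.064, edgeR adjusted p 0.0025). Like Apoe it lost its call with GC and length trends removed (-0.17, edgeR adjusted p 0.132). Dio2, the deiodinase that activates thyroid hormone, fell by 0.29 on the log2 scale, S1pr1, a sphingosine-1-phosphate receptor, by 0.23, and Fjx1 by 0.42 (edgeR adjusted p 0.0244, 0.0369 and 0.0228), each without overlap between groups. Without CBP-ifKO replicate 3 none of these 3 was called (edgeR adjusted p 0.0713, 0.1495 and 0.0623), nor was any without CBP-ifKO replicate 1 (0.0909, 0.100 and 0.0713) or 2 (0.0801, 0.103 and 0.105). Dio2 also lost its call without Control replicate 1 or 3 (0.0855 and 0.128), S1pr1 without Control replicate 2 or 3 (0.0501 and 0.218) and Fjx1 without Control replicate 2 (0.0805). With GC and length trends removed Fjx1 was at -0.23 and not called (edgeR adjusted p 0.142). Etnppl, an enzyme that breaks down phosphoethanolamine, had 17.0, 14.6 and 16.02 CPM in the Control libraries against 32.6, 16.6 and 24.9 CPM in the CBP-ifKO libraries. It rose by edgeR (log2 fold change 0.62 with an SE of 0.18, adjusted p 0.0463) and not by DESeq2 (adjusted p 0.197), its groups overlapped, and without CBP-ifKO replicate 1 it was at 0.38 (edgeR adjusted p 0.185). Its call was also lost without Control replicate 1, 2 or 3 (0.0617, 0.0764 and 0.127) and without CBP-ifKO replicate 3 (0.134). With GC and length trends removed Etnppl was at 0.58 and not called (edgeR adjusted p 0.0651).

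Genes in 3 further lists of the reactive state mostly had low levels. Of 32 genes in lists of pan-reactive genes and of genes induced after inflammation or after ischaemia, 24 passed the filter, 1 fell and 0 rose (4.17% called, against 6.39% of all genes), with 5 lower and 0 higher at an unadjusted edgeR p under 0.05 (21.2% of all genes) and 1 lower and 0 higher by DESeq2. Of the 24 tested, 20 lay below 0, against 50.7% of all genes. Their median log2 fold change was -0.21, against -0.0033 for all genes. The gene that fell was Ptgs2, cyclooxygenase 2, which hippocampal neurons also express. It had 38.6, 39.8 and 38.8 CPM in the Control libraries against 31.3, 29.2 and 28.3 CPM in the CBP-ifKO libraries (log2 fold change -0.40 with an SE of 0.079, edgeR adjusted p 0.0053), and the call was lost without CBP-ifKO replicate 3 (edgeR adjusted p 0.0522). The pan-reactive genes tested (6 of 9) had log2 fold changes between -0.46 and -0.13, of which 0 passed the edgeR test and 0 lay at an unadjusted p under 0.05. Timp1 stood at 1.64 CPM in the Control libraries against 1.52 CPM in the CBP-ifKO libraries, and Steap4, Hspb1 and Cxcl10 did not pass the filter.

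**Figure D5:**
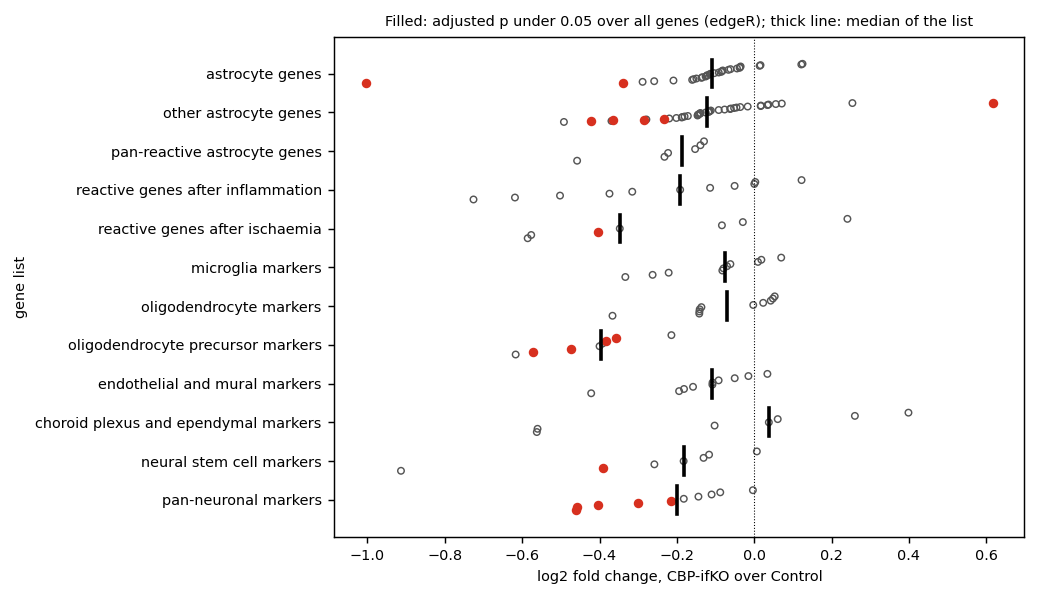
Log2 fold change of CBP-ifKO over Control for each tested gene of the astrocyte list and of 11 further lists of astrocyte, reactive and other cell type genes. Filled points passed an edgeR adjusted p of 0.05 over all genes, open points did not, and thick lines are list medians. Medians lie at -0.11 for the astrocyte genes, -0.40 for oligodendrocyte precursor markers and -0.20 for pan-neuronal markers. Those of the pan-reactive, inflammation and ischaemia lists lie at -0.19, -0.19 and -0.35.

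Markers of other cells moved too. Of 8 markers of oligodendrocyte precursors, all lay below 0 with a median of -0.40, and 4 fell (Pdgfra, Cspg4, Gpr17 and Lhfpl3, named after their values were seen), against 4.99% of all genes. Gpr17 was called in 4 of 14 alternatives, and not with GC and length trends removed (edgeR adjusted p 0.0956) or by DESeq2 (adjusted p 0.0823). The median of the 8 was -0.30 with those trends removed. The summed level of the 8 was 191.1 to 209.2 CPM in the Control libraries against 149.9 to 155.6 CPM in the CBP-ifKO libraries, without overlap. Of 10 pan-neuronal markers 5 fell, against 4.99% of all genes, and 0 rose, with a median of -0.20. Their summed level was 7952 to 8156 CPM in the Control libraries against 7370 to 7570 CPM in the CBP-ifKO libraries. Rbfox3, Tubb3 and Nefm were called in all 14 alternatives, Stmn2 in 11 and Nefl in 8. Nefl and Nefm share 1108 exon bases on opposite strands, and the strand setting of the counts is not given. For markers of microglia (10 tested), oligodendrocytes (10), endothelial and mural cells (10) and choroid plexus and ependyma (7 of 8), edgeR and DESeq2 each called 0. Of all genes they called 6.39% and 6.17%. In the same order, 3, 2, 1 and 1 of these markers lay at an unadjusted edgeR p under 0.05, against 21.2% of all genes. The median log2 fold changes of these lists were -0.075, -0.070, -0.11 and 0.038. Of 7 neural stem cell markers tested 1 fell, Thrsp (log2 fold change -0.39, edgeR adjusted p 0.0291), against 4.99% of all genes. Thrsp was called in 9 of 14 alternatives, and not by DESeq2 (adjusted p 0.0677). Ttr, the leading choroid plexus gene, was at 4.06 CPM in CBP-ifKO replicate 1 and at 15.4 to 24.9 CPM in the other libraries. The part of these other cells in the values of the astrocyte genes was not tested.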

How the data were processed

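Total RNA of hippocampus was sequenced as single-end reads of 50 bp. The authors trimmed adapters (Trim Galore 0.6.4, per the submitters' processing notes), aligned reads with STAR 2.6.1 to GRCm38 and counted those of sufficient mapping quality over exons of Ensembl genes with Rsubread. The deposited values are raw counts per gene, without normalization. The strand setting is not given in the sources used here.

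Groups and replicate numbers came from the sample titles. Of the identifiers, 55230 (99.57%) matched GENCODE M21 (GRCm38). Counts were tested with edgeR 4.0.16 (R 4.3.3), by the quasi-likelihood F-test with TMM scaling, filterByExpr (minimum count 10, minimum total 15) and Benjamini-Hochberg adjustment over 17981 genes, with a threshold of 0.05. The SE was taken as the size of the log2 fold change over the root of F. The common coefficient of variation between replicates was 6.81%. Replicates differed by more than sampling noise (chi-square per degree of freedom 2.48 to 6.10). P-values measure the spread between pools of mice.

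Alternatives were DESeq2 1.42.0, other scalings and filters, offsets on GC content and length (natural splines, 5 degrees of freedom), the replicate number as a block, and each library left out. With a library left out, its group keeps 2 libraries. All 31 astrocyte genes are named, with Crebbp, Esr1 and up to 8 called genes of the other astrocyte and reactive lists. The members and lists were chosen with earlier results of these data known. Promoter windows came from RefSeq (GRCm38.p6). Windows were found for 27 of the 31 genes.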

Additional observations from a re-analysis of the deposited data

How the results depend on the processing

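Serpina3n was called in all 14 alternatives, and 0 astrocyte genes were called higher in any. The number called lower was 2, 3 with no filter on low counts (Mt1 added), and 4 when the replicate block was combined with offsets for GC and length. It ran from 1 to 4 with a library left out. Apoe was not called with GC and length offsets alone and without any CBP-ifKO library. Over all genes the 1149 calls became 1806 with block and offsets and 498 to 1326 with a library left out, lowest without CBP-ifKO replicate 2. Calls lower ran from 416 to 984 and calls higher from 76 to 342 with a library left out. The 252 calls higher became 514 with library totals, 413 with no filter and 521 with block and offsets. Calls in the further astrocyte and reactive lists went from 6 to 10 with block and offsets and ran from 1 to 5 with a library left out, and calls among other cell types, 10, ran from 5 to 9. The median of the astrocyte genes was -0.11, -0.063 with library totals and -0.12 to -0.041 with a library left out. The cause was not tested.

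Genes near 0 changed side. With library totals Gjb6 was at 0.0010, Aqp4 at 0.0079, Htra1 at 0.0078 and Id3 at 0.010. With GC and length offsets Gja1 was at -0.029, Htra1 at 0.040, Fgfr3 at 0.048, Id3 at 0.043 and Mt3 at 0.13. With a library left out, Slc7a10 ran from -0.0095 to 0.043, Gja1 from -0.039 to 0.059, Aqp4 from -0.14 to 0.040, Aldh1l1 from -0.14 to 0.028, Cst3 from -0.26 to 0.053, Htra1 from -0.11 to 0.055, Id3 from -0.094 to 0.10, Mt3 from -0.26 to 0.056 and Vim from -0.23 to 0.029.

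The labels give both groups the numbers 1 to 3, but same-numbered libraries did not deviate together (correlations 0.079, 0.038 and 0.00081). With the replicate block alone, 1210 genes and 2 astrocyte genes were called. With block and offsets Gja1 was at -0.031, Htra1 at 0.050, Fgfr3 at 0.049, Id3 at 0.042 and Mt3 at 0.13. Genes of a few CPM, such as Lcn2, are limited by depth.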
